A study of Mus musculus with 11 samples.

Results

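The protein-coding genes of the major spliceosome were followed through the first cleavage of mouse embryos made with round spermatids or with sperm. The 47 genes were chosen by name out of 49585 genes in the expression table. No rule on their values was used, but earlier results of these data were known when they were chosen. They fall into 10 classes: the Sm core (7 genes), the U1 (3), U2 (11), U4/U6 (3) and U5 (6) proteins, the U2 auxiliary factor U2AF (2), the LSm ring (7), the Prp19 complex (3), the disassembly helicase Dhx15 and the serine- and arginine-rich SR proteins (4). All 47 were read above 0 in every library and passed the filter on low values.

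The embryos were C57BL/6 and came from intracytoplasmic injection of a mature sperm (ICSI) or of a round spermatid (ROSI), the haploid male germ cell before it elongates. Each kind was collected as zygotes and as 2-cell embryos, with 2 libraries for the ROSI zygotes and 3 for each of the other groups. ROSI oocytes were activated after injection in calcium-free CZB medium with 5 mM strontium chloride for 1 to 2 h and then kept in KSOM medium, whereas ICSI embryos were kept in KSOM without strontium. The round spermatid and the strontium are therefore joined in every ROSI library, and their shares in a difference cannot be told apart. ISOGEN II was used to extract total RNA, of which 1 ng went into stranded SMART-seq libraries, and small nuclear RNAs were read along with mRNAs. The labels give neither the number of embryos per library nor the collection time, and nothing in them says that replicates came from separate injections, so each p-value below measures the spread between these libraries, which may be technical. The libraries also hold whole embryos of 1 or 2 cells, with any other cells carried along, and each took 1 ng of total RNA. A level is therefore a share of that RNA and not an amount per embryo or per cell.

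The spliceosome removes introns from pre-mRNA. Its small nuclear ribonucleoproteins (snRNPs) each hold a short uridine-rich RNA: U1 pairs with the 5′ splice site, U2 with the branch point, and the U4/U6 and U5 particles join as a tri-snRNP before U6 takes over the catalytic centre. A ring of Sm proteins is loaded onto the U1, U2, U4 and U5 RNAs by the SMN complex in the cytoplasm, while U6 carries a ring of LSm proteins on its 3′ end. SR proteins bind exons and recruit U1 and U2AF. A mouse zygote begins with RNA and protein stored by the oocyte, much of the maternal RNA is lost by the 2-cell stage, and the major wave of transcription from the embryo's own genome comes at the 2-cell stage.

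The U1 and U2 RNAs show where the Sm ring sits. The sequences below are annotated loci of GENCODE M21 on mm10 (GRCm38), written 5′ to 3′ as DNA. Capitals mark the Sm site (a match to ATTTNTG) in both, and the ACTTACCTG of U1 that pairs with the 5′ splice site. The U1 locus Gm22513 (chr12:54696782-54696945, plus strand) differs from Rnu1a1 by 1 substitution, T60C, with the base of Rnu1a1 first and positions counted from the 5′ end. It was read at 302 to 3760.3 transcripts per 1000000 (TPM, a level per length of transcript and per library) in zygotes and at 440.1 to 1052 TPM in 2-cell embryos. The U2 locus Rnu2-10 (chr11:101658238-101658428, plus strand) stood between 0 and 27.1 TPM. These RNAs have many near-identical copies, so a level belongs to a locus only as far as the reads could be placed.
U1 (Gm22513): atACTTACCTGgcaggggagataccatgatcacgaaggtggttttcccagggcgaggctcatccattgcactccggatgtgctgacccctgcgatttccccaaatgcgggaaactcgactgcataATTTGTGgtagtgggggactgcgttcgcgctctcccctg
U2 (Rnu2-10): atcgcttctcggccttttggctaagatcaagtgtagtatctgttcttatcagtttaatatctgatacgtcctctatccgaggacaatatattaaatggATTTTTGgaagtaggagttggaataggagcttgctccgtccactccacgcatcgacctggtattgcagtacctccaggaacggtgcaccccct

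Library depth, recovered from the TPM values and the exon lengths, was 30.4 to 85.9 M reads in zygotes and 8.48 to 32.9 M reads in 2-cell embryos. The share of TPM on protein-coding genes was 65.9 to 71.5% in zygotes and 44.6 to 51.4% in 2-cell embryos, so every share of the total moves with the stage. Replicate 1 of both zygote groups stood apart, with 0.196% of TPM on small nuclear RNA genes after ROSI and 0.184% after ICSI, against up to 1.20% and 0.482% in the other libraries of those groups. The member with the fewest reads was Lsm4, with 24 reads in ICSI 2-cell replicate 1, the shallowest library. In the tests below a gene is called when its Benjamini-Hochberg adjusted p is under 0.05 by limma on log2(TPM + 1) over the 21938 genes that reached 1 TPM in at least 2 libraries. Differences are on that log2 scale, which understates changes of genes near 1 TPM, and are given with their standard error (SE).

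From the zygote to the 2-cell embryo most spliceosome genes moved, and they moved in both directions within a single particle. After ICSI 14 of 47 were called higher at the 2-cell stage and 29 lower (91.5% called), where 68.1% of all tested genes were called, 33.0% higher and 35.0% lower. After ROSI the counts were 14 higher and 26 lower (85.1% called), against 67.9% of all tested genes, 35.6% higher and 32.3% lower. After ICSI no 2-cell library overlapped a zygote library for 14 members higher and 29 lower, beside 34.9% and 37.3% of all tested genes, and after ROSI for 16 and 26, beside 40.2% and 35.9%. Among the 6785 protein-coding genes with a mean of at least 10 TPM, 85.6% were called in each stage comparison. Of this abundant set 31.0% were called higher and 54.6% lower after ICSI, and 32.8% and 52.8% after ROSI. Much of the members' excess over all genes, and their lean to lower levels, is thus shared with genes of like abundance. The counts per class below stand beside these shares. The median member difference was -0.71 after ICSI and -0.56 after ROSI, beside 0.00 and 0.19 over all tested genes and -0.50 in both for the abundant set. The ICSI and ROSI stage comparisons use no library in common, though each gene has 1 spread estimate for both. The direction was the same in both for all 40 members called in both: 14 higher and 26 lower. The other 3 calls came after ICSI (Snrpa1, Sf3b1 and U2af2), and 4 members (Snrpg, U2af1, Prpf8 and Srsf2) were called in neither. The split depends on how libraries are scaled. With TPM rescaled over protein-coding genes alone it was 17 higher and 22 lower after ICSI and 19 higher and 22 lower after ROSI. The median of the 15276 protein-coding genes tested there was 0.20 and 0.32, where the protein-coding genes tested without rescaling had -0.21 and -0.10. Median-ratio scaling gave 16 and 23 after ICSI and 19 and 22 after ROSI, with the median of all genes at 0.32 and 0.48, and quantile normalization gave 16 and 24, and 18 and 24. Under all 3 of these scalings the 14 genes called higher stayed called higher in both comparisons, and Prpf8 and U2af1 joined them. Summed over the 47 genes the level was 3783 to 4433 TPM in zygotes and 2054 to 2505 TPM in 2-cell embryos, or 0.550 to 0.620% and 0.441 to 0.514% of protein-coding TPM. Oocyte markers fell in the same comparison (8 of 9 called lower after ICSI and after ROSI, with a summed level of 5192 to 7493 TPM in zygotes and 890.0 to 1457 TPM in 2-cell embryos), and the markers of 2-cell embryos (6 of 8 called higher and 1 lower after each injection) stood at 76.2 to 98.6 TPM in zygotes and 326 to 700.2 TPM in 2-cell embryos. Their part in the members' changes was not tested.

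**Figure D1:**
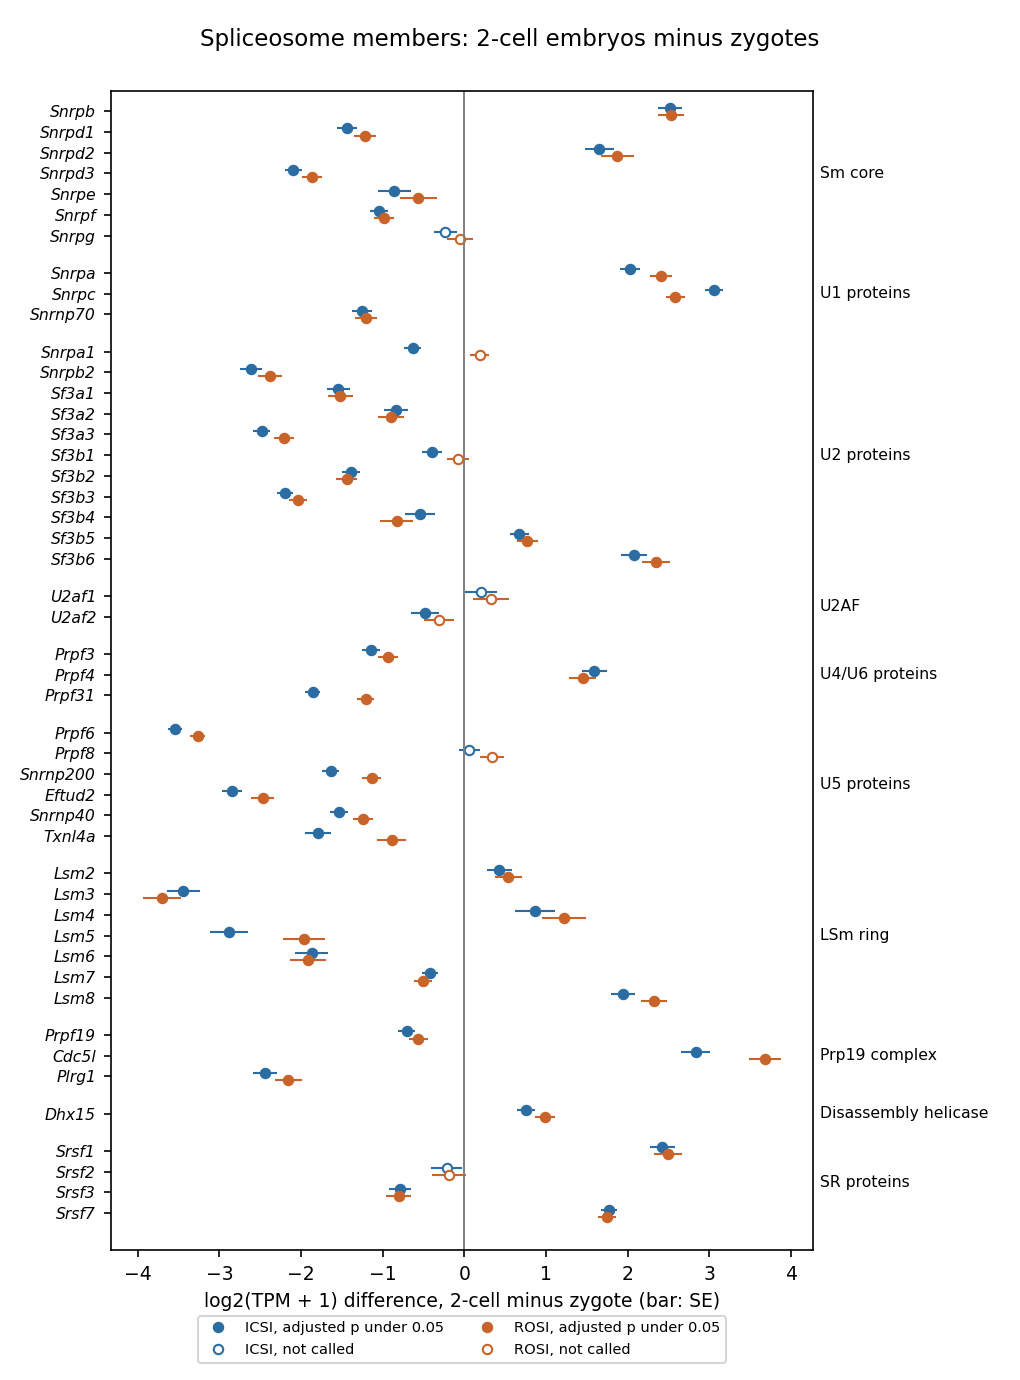
Difference between 2-cell embryos and zygotes on the log2(TPM + 1) scale for each of the 47 members, grouped by class, after ICSI (blue) and after ROSI (orange), with bars of 1 SE and filled points where limma's adjusted p is under 0.05. Prpf6 and Lsm3 lie at the low end near -3.5 and Snrpc and Cdc5l at the high end near 3, and under other scalings Snrpg, Sf3b1, U2af2, Lsm7 and Srsf2 change sign after ICSI and all of these but Lsm7 after ROSI.

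The 7 Sm proteins form 1 ring with 1 copy of each, yet their transcripts spanned over 2 orders of magnitude in zygotes and were closer together at the 2-cell stage. Snrpd1, the SmD1 gene, was the most abundant member in all 4 groups, at 508 and 631 TPM in ROSI zygotes, 568, 690.1 and 736 in ICSI zygotes, 222, 257 and 251 in ROSI 2-cell embryos and 227, 241 and 261 in ICSI 2-cell embryos. Snrpb (SmB/B′, chr2:130171414-130179403, minus strand) was the lowest Sm gene in zygotes, at 3.48 and 3.95 TPM in ROSI zygotes, 2.04, 2.95 and 2.33 in ICSI zygotes, 23.9, 24.9 and 30.2 in ROSI 2-cell embryos and 16.0, 19.8 and 20.4 in ICSI 2-cell embryos. The zygote and 2-cell libraries do not overlap for either gene, and they moved in opposite directions. Snrpb rose by 2.52 (SE 0.15, limma adjusted p = 7.07e-08) after ICSI and by 2.53 (SE 0.16, limma adjusted p = 1.88e-07) after ROSI. Snrpd1 fell by 1.44 after ICSI and by 1.22 after ROSI.

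SmB and SmD3 enter the ring as a pair, and so do SmD1 and SmD2, and in both pairs the stage changes ran opposite ways. Pairs were picked by hand, and opposite moves over all pairs were not counted. Snrpd3 fell by 2.09 after ICSI and by 1.86 after ROSI, so that the level of Snrpb relative to Snrpd3 went from 0.0209 to 0.0350 in the zygote libraries to 0.617 to 0.991 in the 2-cell libraries. Snrpd2 rose by 1.66 and 1.87, and the level of Snrpd2 relative to Snrpd1 went from 0.00721 to 0.00996 in zygotes to 0.0734 to 0.0986 in 2-cell embryos. Snrpf fell by 1.05 and 0.98, with 65.9% of its annotated exon bases antisense to Ccdc38. Snrpe fell by 0.86 (limma adjusted p = 0.00289) and 0.56 (limma adjusted p = 0.0448), and its call was lost after both injections under every scaling named above. Snrpg stood at -0.23 and -0.06 and was not called, while over protein-coding genes alone it was called higher after both injections, and with median-ratio scaling after ROSI. The summed Sm level was 1193 to 1503 TPM in zygotes and 571 to 681 TPM in 2-cell embryos. TPM is compared here between genes per length of all annotated exons together, and Sm genes have processed copies in the genome whose reads may be shared, so the size of a ratio between genes is less certain than its change.

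**Figure D2:**
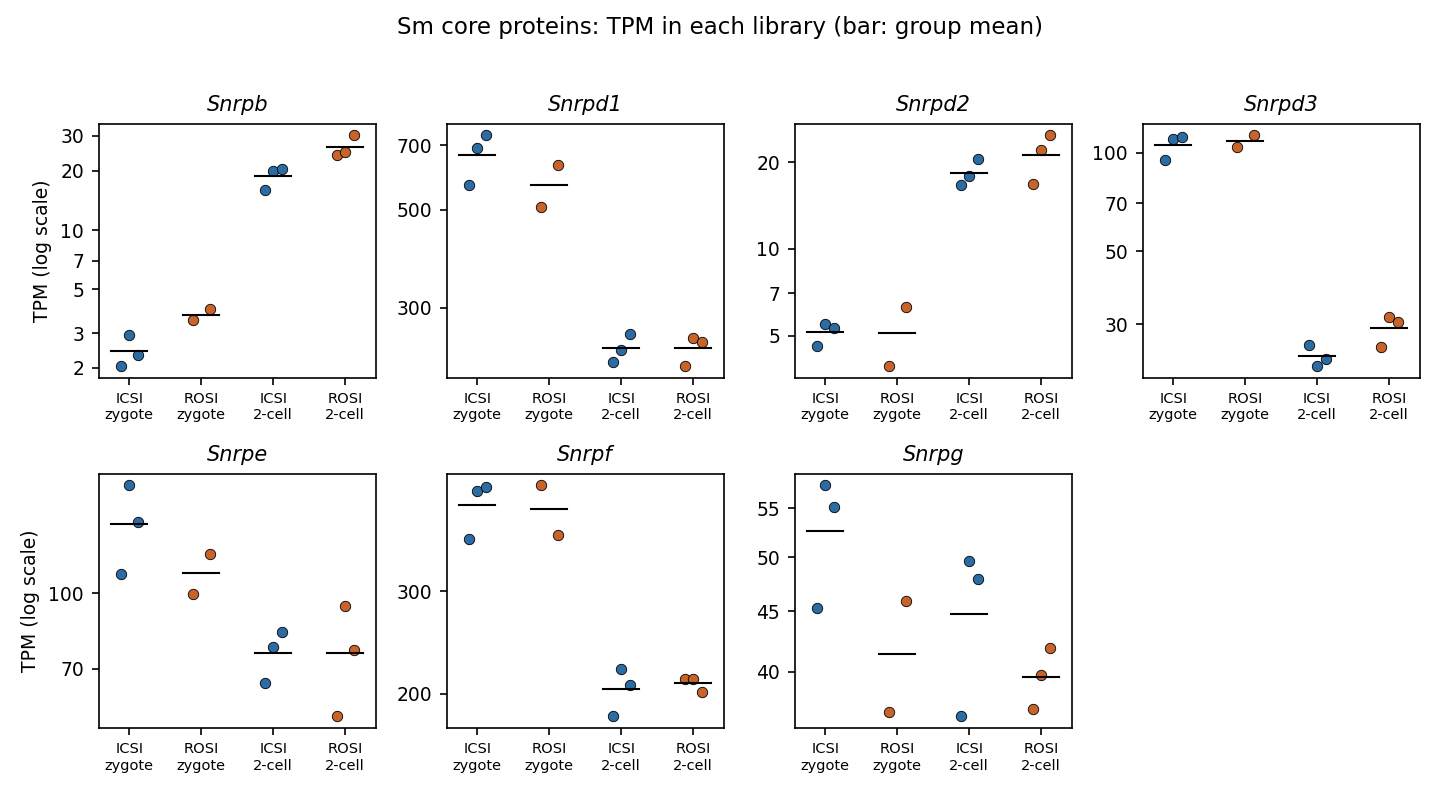
TPM of the 7 Sm core genes in each of the 11 libraries on log axes, with a bar at each group mean. Snrpb and Snrpd2 are lower in every zygote library than in any 2-cell library, Snrpd1, Snrpd3, Snrpe and Snrpf are higher, and Snrpg overlaps between the stages.

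Of the 3 U1 proteins, 2 rose and 1 fell. Snrpc (chr17:27838150-27851968, plus strand), which steadies the pairing of U1 with the 5′ splice site, stood at 9.78 and 12.3 TPM in ROSI zygotes, 9.69, 10.4 and 10.5 in ICSI zygotes, 64.0, 73.1 and 76.3 in ROSI 2-cell embryos and 88.9, 94.6 and 93.0 in ICSI 2-cell embryos. Its stage change was 3.06 (SE 0.11, limma adjusted p = 1.87e-09) after ICSI and 2.59 (SE 0.12, limma adjusted p = 1.56e-08) after ROSI. Snrpa, which binds a loop of the U1 RNA, rose by 2.03 and 2.41. Snrnp70 (U1-70K), the contact of U1 with SR proteins, fell by 1.25 and 1.21. The summed level of the class was 101 to 125 TPM in zygotes and 156 to 201 TPM in 2-cell embryos, and among the Sm, U1, U2, U4/U6, U5 and LSm classes it was the only one whose summed level was higher in every 2-cell library than in every zygote library.

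The U2 proteins mostly fell: 9 of 11 were called lower after ICSI and 7 after ROSI, with 2 called higher in each. Of the abundant protein-coding genes 54.6% and 52.8% were called lower. Snrpb2 (U2B″, chr2:143063039-143072853, plus strand), which binds U2 RNA, stood at 136 and 152 TPM in ROSI zygotes, 152, 209.8 and 202 in ICSI zygotes, 23.6, 26.7 and 30.7 in ROSI 2-cell embryos and 28.4, 29.3 and 30.7 in ICSI 2-cell embryos. No 2-cell library reached any zygote library, and Snrpb2 fell by 2.62 after ICSI and fell by 2.38 after ROSI. The SF3A subunits, which join U2 to the branch region, fell together: Sf3a1 by 1.54 and 1.52, Sf3a2 by 0.84 and 0.90, and Sf3a3 by 2.48 and 2.21. Of the annotated exon bases of Sf3a2 16.1% overlap Plekhj1 on the opposite strand, whose group means were 35.6 to 45.4 TPM. The part of shared reads in the values of Sf3a2 was not tested. Among the SF3B subunits, Sf3b2 and Sf3b3 fell by 1.39 and 2.20 after ICSI and by 1.44 and 2.03 after ROSI, while Sf3b5 and Sf3b6, which code for small subunits, rose by 0.68 and 2.08 after ICSI and by 0.77 and 2.35 after ROSI. Sf3b1, the branch-point clamp, was called lower after ICSI (-0.40, limma adjusted p = 0.0138) and stood at -0.08 after ROSI (limma adjusted p = 0.628). Its ICSI value turned to 0.11 under median-ratio scaling, 0.09 under quantile normalization and 0.13 over protein-coding genes alone, and its call was lost without ICSI 2-cell replicate 1. After ROSI Sf3b1 was called higher under all 3 of these scalings. Snrpa1, the partner of Snrpb2, was called lower after ICSI (-0.63, limma adjusted p = 0.000251), except under median-ratio scaling and over protein-coding genes alone, and stood at 0.19 after ROSI (limma adjusted p = 0.17), where the 3 other scalings called it higher.

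Sf3b4 (chr3:96172332-96177564, plus strand), whose protein contacts pre-mRNA near the branch point, varied within the zygote groups: 49.9 and 36.2 TPM after ROSI and 48.2, 29.6 and 32.1 after ICSI. Replicate 1 was the high library in both groups. Its 2-cell levels were 21.2, 23.5 and 25.9 after ROSI and 25.0, 25.0 and 22.9 after ICSI, all under every zygote library. The calls, -0.54 after ICSI (limma adjusted p = 0.0209) and -0.83 after ROSI (limma adjusted p = 0.00379), were both lost under median-ratio scaling and over protein-coding genes alone, the ICSI call also under quantile normalization. Without ROSI zygote replicate 1 the ROSI call was lost, and without ICSI zygote replicate 1 or ICSI 2-cell replicate 3 the ICSI call was. The U2AF genes, whose products bind the 3′ splice site, gave 1 call: U2af2 at -0.48 after ICSI (limma adjusted p = 0.0262), with 0.03 under median-ratio scaling and 0.05 over protein-coding genes alone, and with the call lost without ICSI 2-cell replicate 1 or ICSI zygote replicate 1 or 3. U2af1 was at 0.20 and 0.33, not called in either.

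In the tri-snRNP most genes fell. All U5 members but Prpf8 were called lower after both injections, beside 54.6% (ICSI) and 52.8% (ROSI) of the abundant protein-coding genes. The summed U5 level was 473 to 540.1 TPM in zygotes, 139 to 142 TPM in ROSI 2-cell embryos and 103 to 126 TPM in ICSI 2-cell embryos. Prpf6 (chr2:181591868-181655660, plus strand), the bridge between U5 and U4/U6, stood at 271 and 259.5 TPM in ROSI zygotes and 306, 270.1 and 293 in ICSI zygotes, and at 26.5, 27.3 and 26.3 in ROSI and 21.9, 24.6 and 25.1 in ICSI 2-cell embryos. Prpf6 fell by 3.55 (SE 0.08, limma adjusted p = 3.2e-10) after ICSI and fell by 3.27 (SE 0.09, limma adjusted p = 1.13e-09) after ROSI. Prpf8, the scaffold of the catalytic centre, differed by 0.06 and 0.34 (limma adjusted p = 0.689 and 0.062), and it was called higher after both injections under each of the 3 other scalings.

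Eftud2, the GTPase that sits on Prpf8, fell by 2.84 and 2.47, and Snrnp200, the helicase that unwinds U4 from U6, fell by 1.64 and 1.14. Snrnp40 fell by 1.54 and 1.25, and Txnl4a, the small U5-15K protein, fell by 1.80 and 0.89. Txnl4a shares 10.1% of its annotated exon bases with Gm16286 on the same strand, whose levels are given further below. In U4/U6, Prpf3 fell by 1.14 and 0.94 and Prpf31 by 1.86 and 1.21, while Prpf4, the partner of Prpf3 in the particle, rose by 1.59 and 1.45. The fall of Prpf31 was 0.65 smaller after ROSI than after ICSI, a difference with limma adjusted p = 0.102.

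In the LSm ring of U6, 3 of 7 genes rose and 4 fell after each injection. The abundant protein-coding genes had 31.0% higher and 54.6% lower after ICSI, and 32.8% and 52.8% after ROSI. Lsm3 (chr6:91515928-91522625, plus strand) stood at 74.2 and 114 TPM in ROSI zygotes, 73.9, 109.6 and 108 in ICSI zygotes, 5.83, 5.94 and 6.61 in ROSI 2-cell embryos and 10.1, 6.42 and 7.55 in ICSI 2-cell embryos. It fell by 3.44 (SE 0.21, limma adjusted p = 9.18e-08) after ICSI and by 3.71 (SE 0.23, limma adjusted p = 1.42e-07) after ROSI. In both zygote groups replicate 1 was the low library, and all zygote libraries lay far above the 2-cell ones. Lsm8, the subunit that sets the nuclear ring apart from the Lsm1 ring of mRNA decay, rose from 1.26 to 1.59 TPM in zygotes to 7.04 to 11.6 TPM in 2-cell embryos, a change of 1.94 after ICSI and 2.32 after ROSI. The level of Lsm8 relative to Lsm3 was 0.0129 to 0.0189 in zygotes, 1.72 to 1.99 in ROSI 2-cell embryos and 0.699 to 1.36 in ICSI 2-cell embryos.

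Lsm5 fell by 2.89 and 1.97 and Lsm6 by 1.87 and 1.91. Lsm4 rose by 0.87 and 1.22, and Lsm2 by 0.43 and 0.54 (limma adjusted p = 0.0265 and 0.015), the smallest rise of the 14. Lsm2 lost its call after ICSI when any of 4 libraries was left out (ICSI zygote replicates 2 and 3, ICSI 2-cell replicates 2 and 3) and after ROSI without ROSI zygote replicate 2. Lsm7 was called lower, by 0.42 and 0.51, but both calls were lost under the 3 other scalings, and after ICSI its value turned to 0.08 under median-ratio scaling, 0.01 under quantile normalization and 0.11 over protein-coding genes alone. Lsm1, which replaces Lsm8 in the cytoplasmic ring and is no member, fell by 0.81 after ICSI and by 0.69 after ROSI.

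The Prp19 complex activates the spliceosome, and of its 3 members 1 rose and 2 fell after each injection. Cdc5l (chr17:45391884-45433737, minus strand), a scaffold protein, stood at 8.06 and 7.54 TPM in ROSI zygotes, 13.3, 10.9 and 15.2 in ICSI zygotes, 97.1, 112 and 129 in ROSI 2-cell embryos and 75.6, 111 and 115 in ICSI 2-cell embryos. It rose by 2.84 (SE 0.18, limma adjusted p = 1.2e-07) after ICSI and by 3.68 (SE 0.20, limma adjusted p = 4.66e-08) after ROSI, and in zygotes the ROSI libraries lay under all ICSI libraries. Plrg1, which binds Cdc5l in the complex, fell by 2.44 and 2.16, and the level of Cdc5l relative to Plrg1 went from 0.0541 to 0.0953 in zygotes to 3.19 to 4.19 in 2-cell embryos. Prpf19, the ubiquitin ligase of the complex, fell by 0.71 and 0.56, with both calls lost over protein-coding genes alone and the ROSI call also under median-ratio scaling. Dhx15, the helicase that takes spent spliceosomes apart, rose by 0.76 and 0.99.

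The 4 SR proteins moved in 3 ways. Srsf1 (chr11:88047373-88053755, plus strand) stood at 29.9 and 20.8 TPM in ROSI zygotes, 31.3, 24.9 and 23.2 in ICSI zygotes, 133, 152 and 153 in ROSI 2-cell embryos and 129, 157 and 152 in ICSI 2-cell embryos. Srsf7 (chr17:80200080-80207307, minus strand) stood at 15.0 and 16.7 TPM in ROSI zygotes, 19.0, 20.7 and 20.1 in ICSI zygotes, 51.2, 58.2 and 57.7 in ROSI 2-cell embryos and 64.5, 69.2 and 78.2 in ICSI 2-cell embryos. Both were higher in every 2-cell library than in any zygote library, and for Srsf7 the ROSI libraries lay under the ICSI libraries at both stages. Srsf1 rose by 2.42 (SE 0.15, limma adjusted p = 1.31e-07) after ICSI and by 2.50 (SE 0.17, limma adjusted p = 2.81e-07) after ROSI, and Srsf7 by 1.77 and 1.75.

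Srsf3 (chr17:29032628-29043373, plus strand) went the other way, from 33.9 and 32.1 TPM in ROSI zygotes and 32.9, 32.3 and 35.2 in ICSI zygotes to 16.6, 19.2 and 19.6 in ROSI and 15.2, 22.9 and 19.5 in ICSI 2-cell embryos. It fell by 0.79 after ICSI (SE 0.14, limma adjusted p = 0.000371) and by 0.81 after ROSI (SE 0.15, limma adjusted p = 0.000715). Srsf2 (chr11:116849901-116853094, minus strand) read 87.6 and 56.3 TPM in ROSI zygotes, 104, 71.0 and 71.4 in ICSI zygotes, 55.6, 60.4 and 68.8 in ROSI 2-cell embryos and 61.9, 73.3 and 73.3 in ICSI 2-cell embryos. Its stages overlap, replicate 1 was the high zygote library in both groups, and its differences of -0.22 and -0.19 were not called and turn positive, still not called, under the 3 other scalings. The highest of the 4 SR transcripts was therefore Srsf2 in every zygote library and Srsf1 in every 2-cell library: the level of Srsf1 relative to Srsf2 was 0.302 to 0.369 in zygotes and 2.07 to 2.52 in 2-cell embryos. Of the annotated exon bases of Srsf2, 15.6% overlap Mettl23 and 9.74% overlap Mfsd11, both on the opposite strand.

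**Figure D3:**
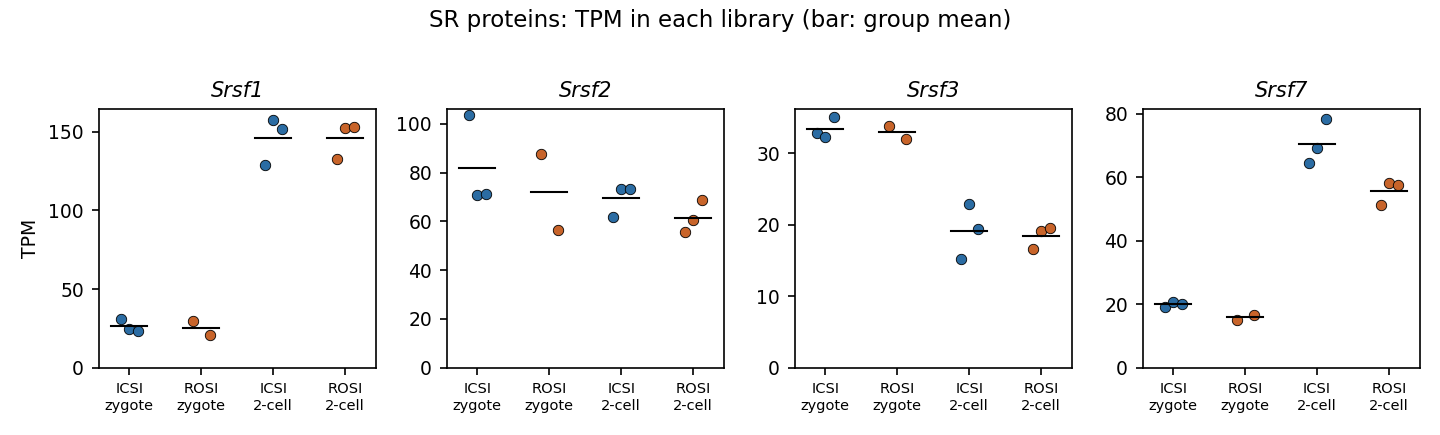
TPM of the 4 SR proteins in each of the 11 libraries on linear axes starting at 0, with a bar at each group mean. Srsf1 stands at 20.8 to 31.3 in zygotes and 129 to 157 in 2-cell embryos, Srsf2 overlaps between the stages, Srsf3 is lower and Srsf7 higher in every 2-cell library.

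Between ROSI and ICSI zygotes no member was called, and 0.146% of all tested genes were, 0.114% higher and 0.0319% lower. The members' median difference was -0.07 beside -0.06 over all tested genes. At an unadjusted p under 0.05 by limma there were 5 of 47 members and 1392 of 21938 genes: Snrpb at 0.46, Snrpa1 at -0.34, Snrpb2 at -0.37, Cdc5l at -0.67 and Srsf7 at -0.31. Complete separation of the 2 ROSI from the 3 ICSI libraries was seen for 2 members higher in ROSI (4.26%) and 10 lower (21.3%), where 6.97% and 19.4% of all tested genes separated in those directions. Cdc5l had the most negative difference (SE 0.20, limma adjusted p = 0.354), followed by Snrpb2 (limma adjusted p = 0.708) and Txnl4a. The last of these read 22.5 and 24.8 TPM after ROSI and 28.2, 30.5 and 32.0 after ICSI, a difference of -0.34 (limma adjusted p = 0.891). At the other end were Snrpb (limma adjusted p = 0.55), Lsm5 at 0.28 and Sf3b4 at 0.24. Among the marker lists, spermatid markers gave calls at this stage: 5 of the 10 tested (11 listed) were called higher in ROSI, with a summed level of 87.2 to 167 TPM against 27.1 to 33.2 TPM. None of the 9 oocyte markers was called by limma, but 4 had an unadjusted p under 0.05, 6 separated with ROSI lower, and the summed level was 5192 to 5934 TPM against 6382 to 7493 TPM. The part of both lists in the members' values was not tested. No gene of the 2-cell, cumulus cell or other testis cell lists was called. The cumulus list summed to 10.6 to 14.2 TPM after ROSI and 13.2 to 15.0 TPM after ICSI, most of it Cyp19a1, with Amh at 0 in all 5 libraries.

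At the 2-cell stage 4 of 47 members were called higher in ROSI than in ICSI embryos (8.51%) and none was called lower, where 9.51% of all tested genes were called, 4.93% higher and 4.58% lower, and 16.1% of the abundant protein-coding genes were called either way. The 4 genes are Lsm5, Prpf31, Eftud2 and Snrpa1, parts of the U6, U4/U6, U5 and U2 particles. The members' median was 0.13 beside 0.04 over all tested genes, and it became -0.01 without ICSI 2-cell replicate 1, the shallowest library, where 3 members were called. Over the other settings tried, the count of called members ran from 1 to 10, while the calls over all genes tested ran from 85 to 3560. At an unadjusted p under 0.05 by limma there were 11 members and 5857 of all genes. The groups did not overlap for 10 members higher in ROSI (21.3%) and 2 lower (4.26%), beside 15.4% and 11.8% of all tested genes.

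**Figure D4:**
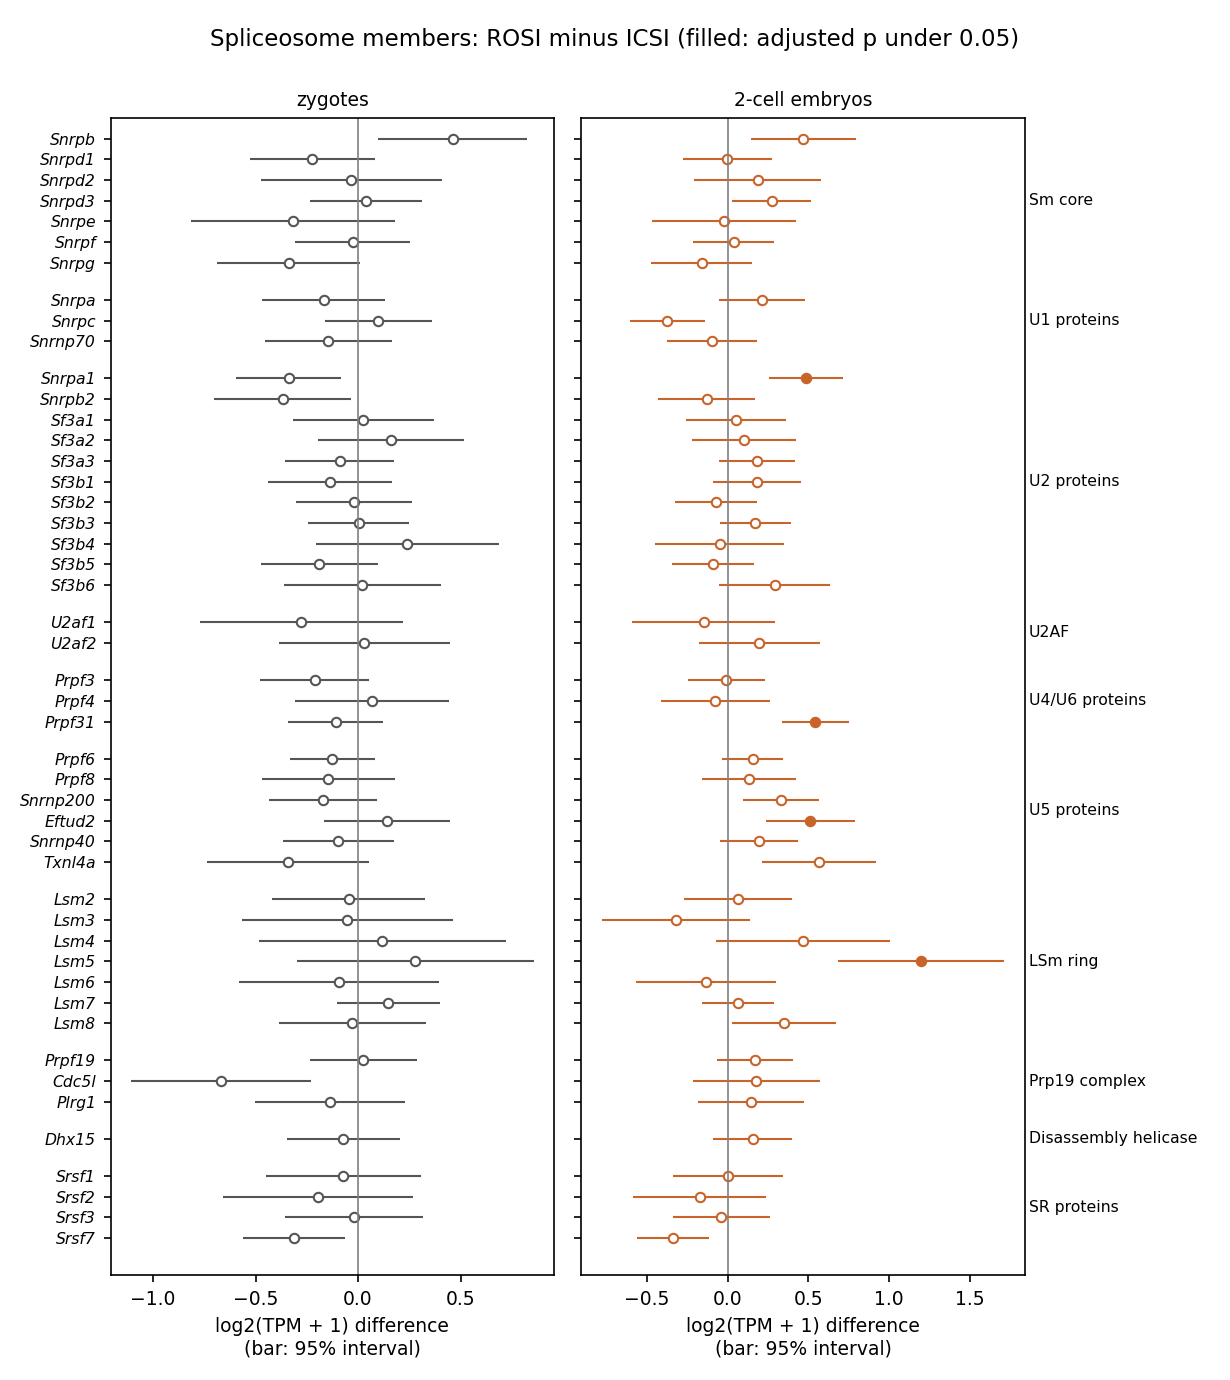
ROSI minus ICSI on the log2(TPM + 1) scale for each of the 47 members in zygotes (left) and in 2-cell embryos (right), with bars of the 95% interval and filled points where limma's adjusted p is under 0.05. No zygote point is filled, and at the 2-cell stage the 4 filled points are Lsm5 (1.20), Prpf31 (0.54), Eftud2 (0.51) and Snrpa1 (0.49).

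Lsm5 (chr6:56701063-56704710, minus strand), a subunit of the U6 ring, read 25.9, 27.3 and 26.2 TPM in ROSI 2-cell embryos and 10.002, 11.1 and 11.9 in ICSI 2-cell embryos. The ROSI libraries were tightly placed and all lay above the ICSI libraries. The difference was 1.20 (SE 0.23, limma adjusted p = 0.0143). It was the only member past 2-fold, and it stayed called when each of the 6 libraries was left out in turn, with a highest adjusted p of 0.0474 by limma. In zygotes Lsm5 read 79.4 and 142 TPM after ROSI and 61.1, 105 and 104 after ICSI, with the groups overlapping. Lsm5 is short and was read 30 times in ICSI 2-cell replicate 1.

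Prpf31 (chr7:3629985-3642486, plus strand), which holds the U4 RNA in the tri-snRNP, read 26.6, 29.0 and 30.8 TPM in ROSI 2-cell embryos and 19.2, 18.3 and 20.8 in ICSI 2-cell embryos, with no overlap. The difference was 0.54 (SE 0.09, limma adjusted p = 0.00928), and it stayed called without any 1 of the 6 libraries (highest limma adjusted p 0.0337). In zygotes it read 66.1 and 69.2 TPM after ROSI and 67.9, 74.3 and 77.1 after ICSI. Of its annotated exon bases 18.1% overlap the antisense gene Gm15927, whose highest group mean was 1.49 TPM.

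Eftud2 (chr11:102838473-102880985, minus strand) read 5.02, 6.63 and 5.38 TPM in ROSI 2-cell embryos and 3.24, 3.59 and 4.17 in ICSI 2-cell embryos, the lowest member by mean in both groups. ROSI libraries were all above ICSI libraries, by 0.51 (SE 0.12, limma adjusted p = 0.0307). The call was kept in 3 of 6 omissions, and the limma adjusted p reached 0.0938 without ROSI 2-cell replicate 2. It was also lost without ICSI 2-cell replicate 1 or 2. Its zygote levels were 34.3 and 37.3 TPM after ROSI and 32.8, 30.3 and 34.1 after ICSI. Both ROSI zygote libraries thus lay above every ICSI zygote library, as at the 2-cell stage, but the difference of 0.14 was not called. The zygote group means lay apart by less than the range within ICSI. Of its annotated exon bases 26.9% overlap the antisense gene Gm26668, whose highest group mean was 0.544 TPM.

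Snrpa1 (chr7:66059003-66074587, plus strand), the partner of Snrpb2 on U2 RNA, read 40.0, 43.1 and 46.9 TPM in ROSI 2-cell embryos and 30.7, 27.6 and 33.7 in ICSI 2-cell embryos. The difference was 0.49 (SE 0.10, limma adjusted p = 0.0198), called in 4 of 6 omissions and at 0.0614 without ICSI 2-cell replicate 2, the other loss being without ROSI 2-cell replicate 2. In zygotes its order was the reverse, with 36.6 and 39.0 TPM after ROSI below 44.3, 49.7 and 50.3 after ICSI. Snrpb2, which binds U2 RNA beside it, was at -0.13 at the 2-cell stage. When only the 2-cell libraries entered the fit, so that the spread rests on these groups alone, limma's adjusted p was 0.0344 for Lsm5, 0.0641 for Prpf31, 0.0900 for Snrpa1 and 0.166 for Eftud2, and 85 genes of the whole table were called.

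**Figure D5:**
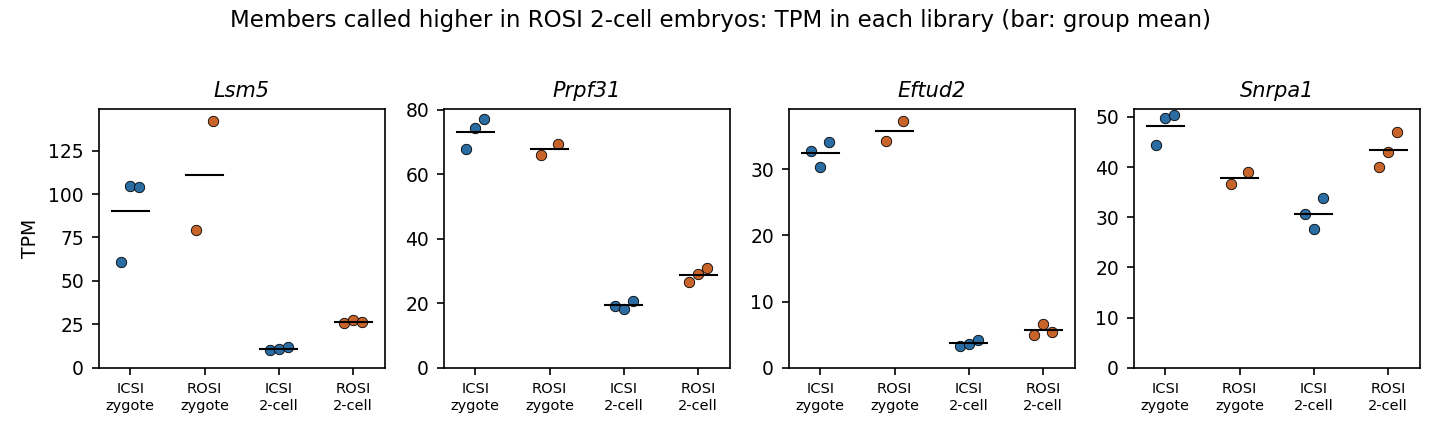
TPM of Lsm5, Prpf31, Eftud2 and Snrpa1 in each of the 11 libraries, with a bar at each group mean. In 2-cell embryos every ROSI library lies above every ICSI library for all 4 genes, while in zygotes Snrpa1 has the opposite order and Lsm5, Prpf31 and Eftud2 differ by 0.28, -0.11 and 0.14 with no call.

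Next in order were members just outside the threshold. Txnl4a read 9.68, 13.9 and 13.7 TPM in ROSI and 6.89, 7.44 and 9.85 in ICSI 2-cell embryos, overlapping by 1 library. Its difference was 0.57 (limma adjusted p = 0.0514). Of its annotated exon bases 10.1% are shared with Gm16286 on the same strand. Gm16286 had group means of 62.8 TPM in ROSI and 49.8 TPM in ICSI 2-cell embryos, and 14.9 and 14.1 TPM in the zygotes. The part of shared reads in the values of Txnl4a was not tested. All 6 U5 genes had positive values, here and under each other scaling, with a median of 0.26, Snrnp200 at 0.33 (limma adjusted p = 0.0786) and Snrpb of the Sm core at 0.47 (limma adjusted p = 0.0719). The most negative members were Snrpc at -0.37 (limma adjusted p = 0.0529), Srsf7 at -0.34 (limma adjusted p = 0.0625) and Lsm3 at -0.32 (limma adjusted p = 0.357), and for Snrpc and Srsf7 every ROSI library lay under every ICSI library. The calls of Txnl4a, Snrpb, Snrnp200, Snrpc and Srsf7 depend on the fit: Snrpc and Srsf7 were called lower and Txnl4a and Snrpb higher under quantile normalization and over protein-coding genes alone.

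Marker genes of stage differed in the same comparison. Of 9 oocyte markers 5 were called lower in ROSI 2-cell embryos (summed level 890.0 to 1093 TPM against 1452 to 1457 TPM), and of 8 markers of the 2-cell stage 6 were called lower (326 to 451 TPM against 661 to 700.2 TPM). Of the 10 spermatid markers tested 5 were called higher (summed level of the list 37.5 to 57.1 TPM against 10.1 to 15.4 TPM), Smcp being at 0 in every ICSI library. Sycp3 was called higher among 3 tested markers of other testis cells (0.56). That list summed to 66.9 to 85.3 TPM in ROSI and 47.9 to 56.2 TPM in ICSI 2-cell embryos, and to 33.2 to 38.8 TPM in ICSI zygotes. Most of that sum was Sycp3, as no other gene of the list passed 2.44 TPM in any library. Sycp3 was thus also read in embryos made without a round spermatid, and the sum says little about the other genes of the list. None of 3 tested cumulus markers was called. The part of these marker genes in the 4 calls was not tested.

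Whether the stage change itself differed was tested as the ROSI change minus the ICSI change. No member was called, and 0.0182% of all tested genes were, 0.0137% with a higher and 0.00456% with a lower value after ROSI. The members' median was 0.21 beside 0.10 over all tested genes, with 7 members and 3303 genes at an unadjusted p under 0.05 by limma. The largest values were Lsm5 at 0.92 (limma adjusted p = 0.258), Txnl4a at 0.91 (limma adjusted p = 0.136), Cdc5l at 0.85 (limma adjusted p = 0.182) and Snrpa1 at 0.82 (limma adjusted p = 0.0789). The lowest were Snrpc at -0.47 (limma adjusted p = 0.21), Sf3b4 at -0.29 and Lsm3 at -0.27. Of the 3 members called after ICSI and not after ROSI, Sf3b1 differed by 0.32 (limma adjusted p = 0.444) and U2af2 by 0.17 (limma adjusted p = 0.803), so neither these nor Snrpa1 passed the test of the difference. Over protein-coding genes alone 4 members were called (Snrpa1, Prpf31, Txnl4a and Cdc5l), and with library weights 2 (Snrpa1 and Prpf31). Over all genes tested those fits called 627 of 15276 and 220 of 21938. The difference uses all 11 libraries and so shares them with the comparisons above.

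The promoters of the members whose levels set groups apart are shown because they are the DNA from which these transcripts start. Each is the 100 bases before the start in RefSeq on GRCm38.p6, written on the strand of the gene, and capitals mark CCAAT on either strand and GGGCGG. They come from Lsm5 (chr6:56704700-56704799, minus strand) and Prpf31 (chr7:3629885-3629984, plus strand), the most stable of the ROSI-higher calls, and from Cdc5l (chr17:45433708-45433807, minus strand), with the largest rise after ROSI.
Lsm5: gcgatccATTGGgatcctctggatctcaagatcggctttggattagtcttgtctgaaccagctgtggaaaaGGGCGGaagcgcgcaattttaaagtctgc
Prpf31: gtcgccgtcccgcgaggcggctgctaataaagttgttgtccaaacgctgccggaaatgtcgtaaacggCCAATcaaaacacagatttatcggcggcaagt
Cdc5l: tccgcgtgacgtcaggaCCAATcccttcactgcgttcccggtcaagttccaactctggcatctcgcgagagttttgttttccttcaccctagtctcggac
Over 300-base windows, 250 before and 50 after the start, 38 of the 47 members matched a RefSeq entry and were set beside 16148 protein-coding genes, counting both strands. CCGGAAG, the core of ETS-factor sites, was in 39.5% of the members' windows and 12.2% of all, and the core of the NRF1 motif in 23.7% and 6.89%. GGGCGG was in 63.2% and 48.2%, CCAAT in 47.4% and 38.8% and CACGTG in 5.26% and 8.03%. Of the matched members called after ICSI, CCGGAAG was in 27.3% of the 11 higher and 47.8% of the 23 lower at the 2-cell stage, and the NRF1 core in 9.09% and 26.1%, counts too small to compare and not tested. A match describes the letters and is no evidence of binding.

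The wider splicing machinery, 97 further genes in 9 lists, also moved both ways with the stage, as all tested genes did. Of all tested genes 33.0% were called higher and 35.0% lower after ICSI, and 35.6% and 32.3% after ROSI. Among the abundant protein-coding genes 85.6% were called in each stage comparison, 31.0% higher and 54.6% lower after ICSI and 32.8% and 52.8% after ROSI. The counts here and in the next paragraph stand beside these shares. Among the 14 genes of snRNP assembly and import 8 were called higher and 6 lower after ICSI, and 8 and 4 after ROSI. Tgs1, which makes the trimethyl cap of snRNAs, rose by 5.06 and 4.74 and Gemin5, which recognises snRNAs for the SMN complex, by 4.05 and 4.49, while Smn1 itself fell by 2.56 after ICSI. Of 11 tested other SR and SR-related genes (12 listed) 7 rose and 1 fell after ICSI and 9 and 1 after ROSI, Tra2a by 3.49 and 3.80 and Srsf6 by 2.29 and 2.45. Their kinases were mostly lower, with 5 of 7 called lower after each injection, among them Clk1 (-2.18 and -1.55) and Srpk1 (-1.25 and -1.38).

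Of 31 other spliceosome factors 10 rose and 18 fell after ICSI, and 11 and 18 after ROSI, with Sart3, the U6 recycling factor, falling by 3.03 and 2.63 and Ppil1 rising by 3.27 and 3.08. Of 18 hnRNP genes 6 rose and 7 fell after ICSI and 6 and 6 after ROSI, Hnrnpm rising by 2.42 and 2.73. In the 6 genes of the exon junction complex 3 rose and 3 fell after ICSI, and 3 and 2 after ROSI, with Casc3 rising by 2.76 and 3.05 and Magohb falling by 3.37 and 3.06. Of 7 minor spliceosome proteins 3 rose and 3 fell after each, Snrnp35 rising by 4.88 and 4.82. The remaining lists hold 1 gene each, Lsm1 given above and Snrpn (SmN), which was at 0.43 and 0.44.

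None of these genes that passed the filter was called between ROSI and ICSI zygotes or in the difference of the stage changes. Between 2-cell embryos 7 were called, 5 higher and 2 lower, beside 9.51% of all tested genes. Clns1a, the chaperone that hands Sm proteins to the SMN complex, was higher in ROSI by 0.80 (SE 0.11, limma adjusted p = 0.00471), with 88.4, 103 and 98.2 TPM against 51.1, 50.5 and 63.7 TPM in ICSI. No ICSI library reached the ROSI libraries. Clk2 was higher by 0.57 (limma adjusted p = 0.0150), Sart1 by 0.55 (limma adjusted p = 0.0244), Prpf38a by 0.39 (limma adjusted p = 0.0331) and Snrnp25 by 0.47 (limma adjusted p = 0.0456). Gemin7 and Pcbp2 were lower, at -0.42 (limma adjusted p = 0.0423) and -0.41 (limma adjusted p = 0.0202).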

How the data were processed

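RNA-seq of 11 libraries in 4 groups was analysed. The authors deposited 1 table of TPM for all genes, and per the submitters' processing notes fastp, Bowtie2, STAR 2.7.4a, featureCounts and mm10 were used. Their roles, the annotation, the strand setting and the handling of reads that map to several places are not given in the sources used here. With the summed exon length of each gene in GENCODE M21, 86.9 to 89.8% of checked values came out as whole reads within 0.01 (2% by chance), and this gave the depths. For the tests, log2(TPM + 1) of genes reaching 1 TPM in 2 or more libraries was fitted by limma 3.58.1 (R 4.3.3) with 4 group means over all 11 libraries and a variance trend, for 5 comparisons, with Benjamini-Hochberg adjustment over all tested genes. Intervals are 95% intervals of the fit. The fit was tested on simulated data. Tables used pandas 2.3.3 on Python 3.11.15. No set test and no p over the members was computed.

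Every member was accounted for. Values in every library were given for members called between ROSI and ICSI or in the difference of the stage changes, for the 3 largest and 3 smallest differences of each comparison, and for the SR proteins. Genes of other lists were named by smallest p, at most 4 per list and comparison. Snrpd1, Snrpd3, Lsm8 and others that fall outside this rule were named for their place in a particle. The pairs given as relative levels were picked by hand, most of them with opposite stage changes. Genes of a class that moved the same way, such as Snrpe and Snrpf, were given no relative level. The members and lists were chosen with earlier results of these data known. Groups share replicate numbers, but nothing in the labels says that a number marks a shared batch, and the fit has no replicate term. Alternatives were pseudocounts of 0.1 and 5, no filter, a filter of 5 TPM, median-ratio and quantile scaling, protein-coding genes alone, no trend, library weights, a replicate block, the groups of a comparison alone, a 2-fold rule and leaving out each library. Fits split by the small nuclear RNA content of the zygote libraries were added after seeing the data.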

Additional observations from a re-analysis of the deposited data

Results flagged for a closer look

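Snrpa1, which codes for a protein of the U2 particle, was the member whose ROSI and ICSI libraries separated completely at both stages and in opposite directions. In zygotes ROSI was lower than ICSI by -0.3385 on the log2(TPM + 1) scale (36.6 and 39.0 TPM against 44.3, 49.7 and 50.3 TPM, limma adjusted p = 0.517), and in 2-cell embryos ROSI was higher by 0.486 (40.0, 43.1 and 46.9 TPM against 30.7, 27.6 and 33.7 TPM, limma adjusted p = 0.0198). The difference of the stage changes was tested and came to 0.8245 (SE 0.16, limma adjusted p = 0.0789), which misses the threshold over all genes. It was called over protein-coding genes alone and with library weights, and its adjusted p was at most 0.244 when 1 library was left out.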

How the results depend on the processing

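The count of members called between ROSI and ICSI 2-cell embryos, 4 in the reported fit, depended most on the settings. It was 7 with a pseudocount of 5 (2474 of 21938 genes called) and 7 with a filter of 5 TPM (2121 of 12910). It was 9 with median-ratio scaling (3480 of 21938), 10 with quantile normalization (3263 of 21938) and 9 over protein-coding genes alone (3560 of 15276). The calls over all genes thus rose in these settings too. It was 1 with the 2-cell groups alone (85 of 21938) and 1 with the 2-fold rule (460 of 21938). When 1 library was left out it was 2 to 5 (2 without ROSI 2-cell replicate 2 or ICSI 2-cell replicate 2). Over all genes tested in a setting this comparison gave 85 to 3560 calls, against 2087 of 21938 in the reported fit. The highest count came from the fit of protein-coding genes alone. Deviations of same-numbered libraries from their group means had r of 0.63 and 0.51 in the 2 zygote pairs. With 2 ROSI zygote libraries these deviations mirror each other, so the 2 pairs are not separate observations. ROSI zygote replicate 2 also had r of 0.496 with ICSI zygote replicate 3. Deviations balance out within a group, so where ICSI replicate 1 stands apart the other ICSI zygote libraries lean the other way together. These values therefore cannot decide whether a replicate number marks a shared batch. In the 3 same-numbered pairs of 2-cell embryos r was 0.09, -0.01 and -0.02, and differently numbered pairs ran from -0.13 to 0.16. With a replicate block the members' count was 7 in 2-cell embryos (1737 of 21938 genes called), Txnl4a (higher), Snrpc and Srsf7 (both lower) being added. The block gave 44 members after ICSI, 41 after ROSI and 0 in zygotes and in the difference. The difference of the stage changes went from 0 to 4 over protein-coding genes alone and to 2 with library weights, and stayed 0 when 1 library was left out. Over all genes tested in a setting it ran from 0 to 627, against 4, with 627 of 15276 in the fit of protein-coding genes alone. In zygotes the count was 0 under every setting that kept at least 2 libraries per group. With the zygote groups alone 0 genes of the whole table were called, so that setting could not tell members from other genes. The fit poor in small nuclear RNA held 1 zygote library per group, and the rich fit held 1 ROSI and 2 ICSI zygote libraries. For these only the members' medians are given, -0.08 and -0.07. The zygote count over all genes ran from 0 to 311, against 32. The stage counts ran from 30 to 44 after ICSI and from 28 to 42 after ROSI, the low ends coming from the 2-fold rule, and from 41 to 42 and from 38 to 41 when 1 library was left out. After ICSI 3 members reversed: Sf3b1 at 0.1114 with median-ratio scaling, 0.0883 with quantile normalization and 0.1327 over protein-coding genes alone, U2af2 at 0.0255 and 0.0463 with the first and the last of these, and Lsm7 at 0.0849, 0.0056 and 0.1061. Under median-ratio scaling and quantile normalization the median of all genes after ICSI was 0.32 and -0.09, in place of 0.00. Over protein-coding genes alone their median was 0.20, in place of -0.21 for the protein-coding genes of the reported fit. The cause of the other shifts was not tested. The difference of the stage changes uses all groups and has no fit of its groups alone. Depth limits Lsm4, Lsm5, Lsm8 and Snrpb, which had 24 to 69 reads in their shallowest libraries.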
